A study of Mus musculus with 12 samples.

Results

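Sox5, Sox6 and Sox13 make up the SoxD group of transcription factors, and the H4K8ac peaks that the authors assigned to them were compared between neonatal and adult oligodendrocyte progenitor cells of the mouse. H4K8ac is acetylation of lysine 8 on histone H4, a mark found at active promoters and enhancers. The members were taken by gene name from the peak list of each library: 77 of 269580 deposited peaks, which merged into 30 of 98027 regions, and 3 of 23433 genes with an assigned peak. The group was chosen by measured values of these lists (the peaks and covered bases at each age, known from earlier results), so its peak numbers and lengths are described without a test.

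SoxD proteins bind DNA through a high-mobility-group box, pair with each other through a leucine zipper, and lack a transactivation domain of their own, so they act largely by modulating other factors at shared sites. In the oligodendrocyte lineage Sox5 and Sox6 are known to hold back differentiation: they oppose the activation of myelin genes by the SoxE factors Sox9 and Sox10 and favour expression of Pdgfra, the receptor that keeps progenitors dividing. Sox13 is the third and least studied member, expressed in many tissues.

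The neonatal group held 3 libraries from mice at postnatal day 5 and the adult group 3 libraries from mice at postnatal day 60. All mice carried PdgfrαH2BEGFP, a nuclear green fluorescent reporter driven by Pdgfra, a gene that fibroblasts of the brain coverings also express, and the cells were sorted from forebrain. The labels call the libraries of an age biological replicates and do not say how many mice each library came from. Chromatin was crosslinked, immunoprecipitated with an H4K8ac antibody and sequenced (ChIP-seq). The 6 input libraries of the series were not analysed here.

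The lists differed in length before any gene was considered: 9097, 31189 and 7353 peaks in neonatal replicates 1, 2 and 3, and 72278 to 77002 in the adult libraries. Values of libraries are given throughout in the order of replicates 1, 2 and 3. Neonatal replicate 2 stood apart from the other neonatal libraries in the length of its list and in covered bases. Results are given without it where it decides them. The files give no read numbers, so depth is unknown. Promoter peaks lay on 6 or 7 of 7 progenitor marker genes in every library. They lay on 1 of 6 mature oligodendrocyte genes (Mbp) in each neonatal list and on 6 of 6 in each adult list, on 0 and 1 of 5 microglial genes (the latter Cx3cr1, with P2ry12, Csf1r, Tmem119 and Aif1 without a peak in any list), on 0 to 4 of 6 and 2 to 4 of 6 neuronal genes, on 0 to 3 and 1 to 3 of 5 astrocyte genes, on 0 to 2 and 1 to 2 of 5 fibroblast or mural genes, and on 0 and 2 of 4 endothelial genes. The part of these other genes' cells in the differences between ages was not tested.

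All 3 genes lie on the minus strand. In the GRCm38.p6 annotation of RefSeq, Sox5 (ENSMUSG00000041540.16) spans 954 kb on chromosome 6, 143828425 to 144782287. Sox6 (ENSMUSG00000051910.13) spans 570 kb on chromosome 7, 115470872 to 116040776. Sox13 (ENSMUSG00000070643.11) spans 42.2 kb on chromosome 1, 133382300 to 133424459. Sox5 and Sox6 are thus very long genes with many annotated start sites, and Sox13 is compact.

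Promoter sequences of RefSeq (GRCm38.p6, from 250 bases before to 50 after a start site) were found for all 3 genes, in 8 entries. One entry of each gene is shown 5′ to 3′ on the minus strand because the entries meet H4K8ac in different ways: the Sox13 promoter, chr1:133424163-133424462, had a peak in all 6 libraries and its capitals mark the 97 bases that every library covered; an internal Sox6 promoter, chr7:115824661-115824960, overlapped a peak in adult replicate 2 alone and its capitals mark the 123 bases covered there; and an internal Sox5 promoter, chr6:143947057-143947356, had no peak in any library and no capitals.
Sox13 promoter: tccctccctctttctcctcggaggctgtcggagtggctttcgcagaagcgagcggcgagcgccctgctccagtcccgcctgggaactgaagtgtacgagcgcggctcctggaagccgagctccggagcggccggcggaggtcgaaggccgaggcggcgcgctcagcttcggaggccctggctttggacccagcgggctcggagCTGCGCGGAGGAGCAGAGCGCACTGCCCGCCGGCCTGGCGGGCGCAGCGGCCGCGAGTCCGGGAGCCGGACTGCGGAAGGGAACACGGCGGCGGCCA
Sox6 internal promoter: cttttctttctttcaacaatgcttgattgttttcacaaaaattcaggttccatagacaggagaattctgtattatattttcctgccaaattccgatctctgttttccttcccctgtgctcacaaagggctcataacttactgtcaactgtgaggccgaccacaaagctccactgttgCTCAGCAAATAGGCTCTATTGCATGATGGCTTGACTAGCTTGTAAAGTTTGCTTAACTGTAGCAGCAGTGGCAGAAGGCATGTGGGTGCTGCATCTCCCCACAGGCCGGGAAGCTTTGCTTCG
Sox5 internal promoter without a peak: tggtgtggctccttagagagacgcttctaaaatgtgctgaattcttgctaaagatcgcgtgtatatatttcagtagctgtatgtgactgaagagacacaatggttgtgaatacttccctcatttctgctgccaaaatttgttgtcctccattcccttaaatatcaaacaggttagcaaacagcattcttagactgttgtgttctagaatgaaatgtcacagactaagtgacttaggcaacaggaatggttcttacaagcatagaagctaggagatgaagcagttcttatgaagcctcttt
The Sox13 sequence held 40 CpG dinucleotides and 73.3% G or C, against 4 and 45.0% in the internal Sox6 promoter and 3 and 39.7% in the internal Sox5 promoter. Of the Sox6 entries not shown, chr7:116030998-116031297 overlapped a peak in neonatal replicate 2 and held 13 CpG dinucleotides. The entry at chr7:116038695-116038994 had no peak in any library and held 11. The remaining Sox6 entries had no peak and held 2 each. The median over the 32851 RefSeq promoters of 300 bases was 7 CpG dinucleotides. AACAAT, a core sequence that Sox proteins recognise, was searched on both strands. It was present in 10.7% of those promoters and, among the 8 SoxD entries, in the internal Sox6 promoter alone, with 1 match on each strand, starting at bases 15 and 26 of the sequence and outside its capitals.

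Sox5, which dimerises with Sox6, carried H4K8ac at the same main start site at both ages, and a further start site inside the gene had peaks in neonatal lists only. Peaks assigned to Sox5 covered 800, 3092 and 506 bp in the neonatal and 945, 1462 and 1111 bp in the adult libraries. The highest and the 2 lowest values were all neonatal, so the ages overlapped. The means were 1.47 ± 1.42 kb in neonatal and 1.17 ± 0.264 kb in adult libraries (SD, n = 3 each), a ratio of adult over neonatal of 0.80. That direction rested on neonatal replicate 2, without which the ratio was 1.80.

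**Figure D1:**
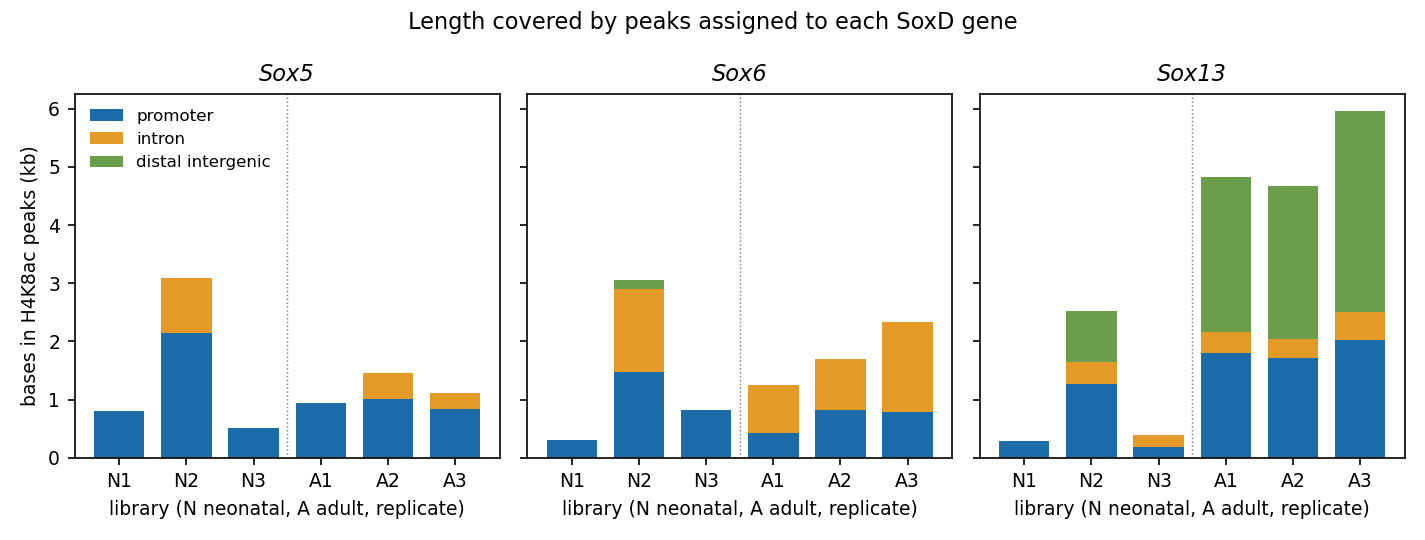
Bases in peaks (kb, stacked by the authors' class of position) assigned to Sox5, Sox6 and Sox13 in each library; N1 to N3 are neonatal and A1 to A3 adult replicates 1 to 3. Adult Sox13 bars stand between 4.67 and 5.96 kb, above every neonatal bar, while Sox5 and Sox6 reach their highest values in N2.

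Of the 4332 genes with a peak in all 6 lists, 3.86% had a lower mean covered length in adult than in neonatal libraries, and the median ratio was 2.96. Sox5 lay at the 2.19 percentile of these ratios, Sox6 at the 6.53 and Sox13 at the 74.1 percentile. Without neonatal replicate 2 the share with a lower adult mean was 0.762%, the median ratio 4.89, and the percentiles 6.26 for Sox5, 25.9 for Sox6 and 85.4 for Sox13. The covered length of every adult library exceeded that of every neonatal library for 60.0% of all genes with a peak and for 78.2% of those with a peak in all 6 lists. Of the SoxD genes only Sox13 had that pattern, and none had the reverse, which 0.303% of all genes showed. In the number of peaks the ages overlapped for all 3 genes, whereas every adult list was above every neonatal list for 35.3% of genes and below for 0.282%.

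**Figure D2:**
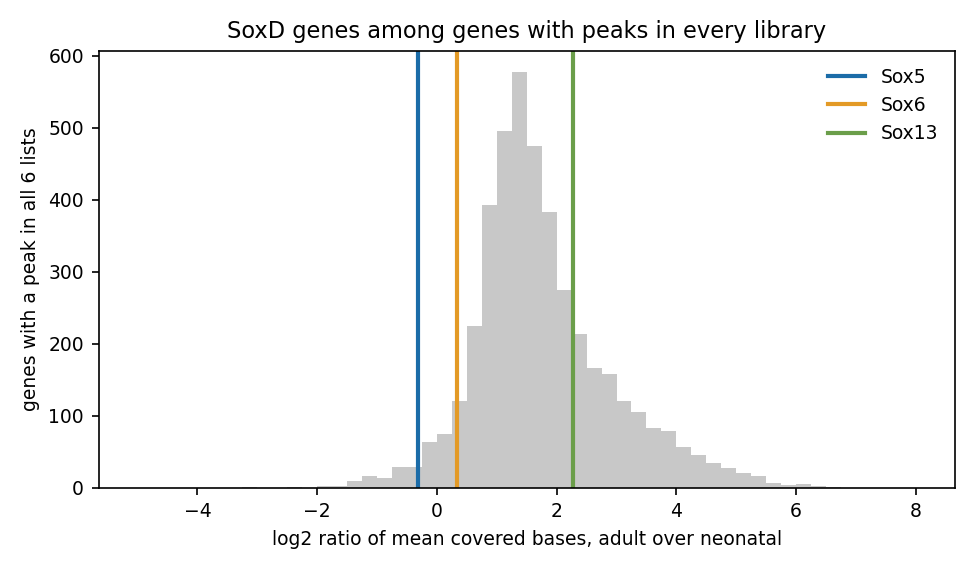
Distribution over 4332 genes with a peak in all 6 lists of the log2 ratio of mean covered bases, adult over neonatal (grey bars, number of genes), with the 3 SoxD genes as vertical lines. Sox5 and Sox6 stand left of the bulk at -0.32 and 0.34, and Sox13 right of the median at 2.27.

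The peaks of Sox5 merged into 7 regions. The only region with a peak in all 6 libraries was the promoter at the most upstream start site of the lists (chromosome 6, 144781369 to 144782822), where ENSMUST00000141102.7 and ENSMUST00000149451.7 begin. Peaks covered 640, 1299 and 506 bp of it in the neonatal and 945, 1014 and 844 bp in the adult libraries. The adult libraries varied little and fell inside the neonatal range, with means of 815 ± 424 and 934 ± 85.5 bp (SD, n = 3 each). The strongest Sox5 promoter peak lay in this region in every library. Its fold enrichment over background, the authors' own value, was 6.05, 8.17 and 4.80 in the neonatal and 8.99, 7.37 and 7.18 in the adult libraries. Within their own lists these peaks stood at the 82.0, 85.9 and 57.5 percentile of fold in neonatal and at the 84.6, 82.2 and 81.5 percentile in adult libraries, which describes each list and shows no change between lists of unequal length.

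The lists were then cut to equal length, to the 7353 peaks with the smallest p-value in each library. Sox5 kept 2, 1 and 2 peaks in neonatal replicates 1, 2 and 3, all at the upstream promoter, and none in any adult library. A promoter peak in all 3 neonatal and no adult list at this length was found for 1.93% of all genes and for 9.36% of the 3996 genes that, like Sox5, had a promoter peak in all 6 full lists. The reverse, which no SoxD gene showed, was found for 1.72% of genes. In the full lists width and fold at this start site overlapped between the ages.

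The internal Sox5 start sites lie 571 to 573 kb downstream of the upstream promoter, where ENSMUST00000077160.11 and ENSMUST00000150087.1 begin. A region there (chromosome 6, 144209015 to 144209446, promoter) had peaks of 160 bp in neonatal replicate 1 and 432 bp in neonatal replicate 2. Neonatal replicate 3 and the 3 adult libraries had none. Neonatal replicate 2 had further peaks of 167 and 251 bp upstream of it, all within 1.503 kb. The peaks were weak, with folds of 3.84 and 4.56 at the first region and of 3.02 and 3.52 at the others. No adult list had a peak anywhere in this stretch.

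This start site is also the only SoxD position with a listed change towards neonatal cells. It appears in the authors' deposited table of differential sites at chromosome 6, 144209062 to 144209461, with a log2 fold change, adult over neonatal, of -3.00 (adjusted p = 0.000778). That value lay at the 0.0365 percentile of the 43888 sites in the authors' deposited table. The adjusted p-values imply 54838 tested sites, of which 0.463% were listed as higher in neonatal and 79.6% as higher in adult cells. With unlisted sites counted as lowest, the tested sites had a median log2 fold change of 2.04, a lower bound of the shift towards adult cells in the authors' deposited table, and values below are set beside it. No listed site lies at the upstream Sox5 promoter.

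Away from its promoters Sox5 had few peaks. A region in intron 6 of 14 (chromosome 6, 143967890 to 143968337) had a peak in neonatal replicate 2 and adult replicates 2 and 3, covering 230, 448 and 267 bp. Regions in other introns (chromosome 6, 144181066 to 144181565 and 144313278 to 144313490) had a peak in neonatal replicate 2 alone. No Sox5 peak was distal intergenic. In all, 5 of the 7 regions had peaks in neonatal libraries only, 4 of them in neonatal replicate 2 alone.

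The count by assigned gene leaves out part of the Sox5 body, because the authors' annotation gives a peak to the gene with the nearest start site. Inside Sox5 or within 10 kb of it, 17 peaks were assigned to other genes, against 21 assigned to Sox5 itself. Peaks between 144045661 and 144057650, in intron 3 of 14 of Sox5 and assigned to the antisense RNA gene Sox5os1, were present in all 6 libraries, with 1, 3 and 1 peaks in the neonatal and 1, 2 and 2 in the adult lists. Peaks assigned to another antisense gene, Sox5os2, between 144453514 and 144461191 in intron 3 of 13 of another Sox5 transcript, were present in the adult lists only, with 1, 1 and 4 peaks. In the authors' deposited table a site there (chromosome 6, 144454712 to 144455111) had a log2 fold change of 2.73 (adjusted p = 0.00044). So the Sox5os2 stretch had the opposite direction to the internal Sox5 start site. The Sox5os1 peaks covered 250, 1789 and 404 bp in the neonatal and 140, 335 and 560 bp in the adult libraries. Those values overlapped. Counting by position, Sox5 was covered over 1.05, 5.06 and 0.910 kb in the neonatal and 1.25, 2.47 and 2.76 kb in the adult libraries.

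**Figure D3:**
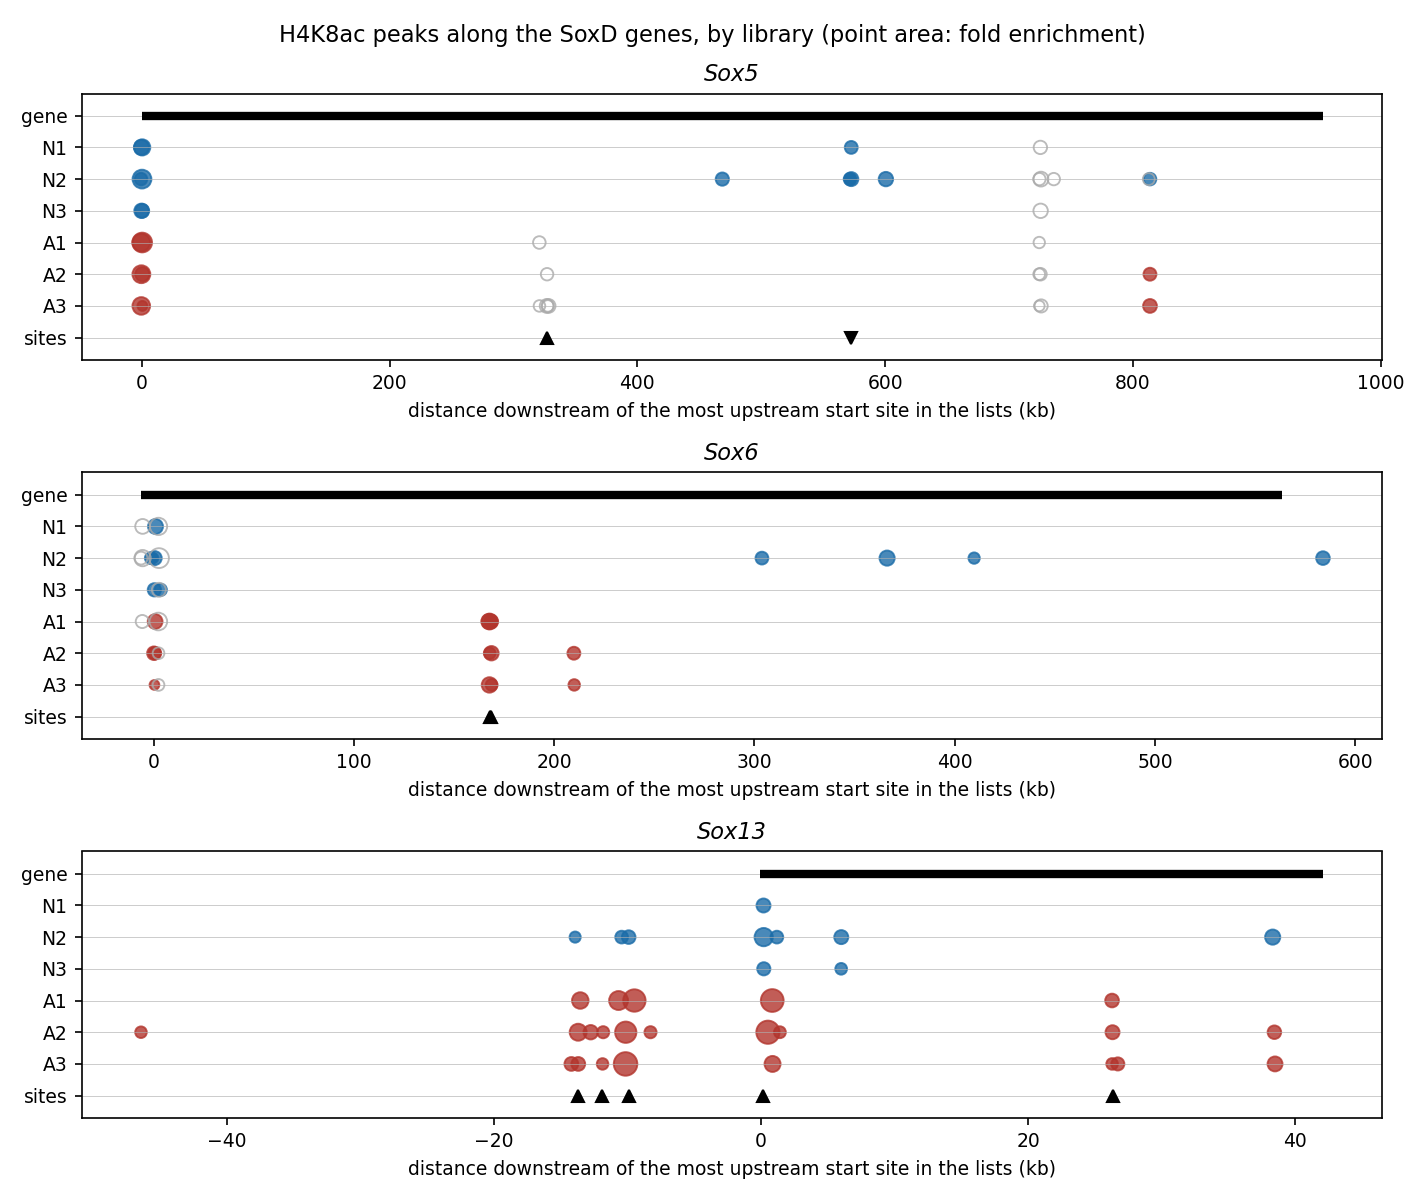
Peaks in each library along Sox5, Sox6 and Sox13, by distance (kb) downstream of the most upstream start site in the lists; filled points are peaks assigned to the gene (blue neonatal, red adult), open grey points peaks inside or within 10 kb that were assigned to another gene, point area is proportional to fold, the black bar is the RefSeq gene, and triangles are sites of the authors' table (up, higher in adult; down, higher in neonatal). All libraries meet at the upstream start of each gene, the Sox5 internal start near 573 kb is filled in N1 and N2 only, and Sox6 has adult peaks near 168 kb in A1, A2 and A3 and no neonatal peak there.

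Sox6, the partner of Sox5 in holding progenitors undifferentiated, had peaks at its upstream start sites at both ages and an intronic stretch with peaks in adult lists only. Assigned peaks covered 0.302, 3.06 and 0.814 kb in the neonatal and 1.25, 1.704 and 2.34 kb in the adult libraries. The ages overlapped through neonatal replicate 2 alone, since the other 2 neonatal values lay below every adult value. The means were 1.39 ± 1.47 kb in neonatal and 1.76 ± 0.545 kb in adult libraries (SD, n = 3 each), a ratio of 1.27, which became 3.16 without neonatal replicate 2 and 0.911 without neonatal replicate 1.

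Of the 11 Sox6 regions, 1 had a peak in all 6 libraries: the promoter at chromosome 7, 116033417 to 116034444, at the start of ENSMUST00000205980.1 and just downstream of that of ENSMUST00000205818.1. Peaks covered 302, 1028 and 656 bp of it in the neonatal and 423, 494 and 612 bp in the adult libraries. The adult values fell inside the neonatal range. Folds of the strongest assigned promoter peak were lower than at Sox5, at 5.20, 4.56 and 4.08 in the neonatal and 5.06, 4.25 and 3.08 in the adult libraries. In adult replicate 3 that peak lay at another start site (chromosome 7, 115824371 to 115824541), and the peak at the shared promoter had a fold of 2.22.

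A further promoter peak, centred 2.4 to 2.7 kb downstream of the most upstream start, lies at the start of the antisense RNA gene Sox6os and was assigned to it. It was present in all 6 libraries, with folds of 6.87, 9.04 and 4.50 in the neonatal and of 7.19, 3.15 and 3.20 in the adult libraries. In neonatal replicate 2 this peak ran over 1907 bp and also covered the start of the Sox6 transcript ENSMUST00000206034.1. Counting by position, which adds this peak and those of the neighbouring gene 1110004F10Rik, the covered length of Sox6 was 1.15, 5.46 and 1.03 kb in the neonatal and 2.31, 2.12 and 2.496 kb in the adult libraries, and the direction of the mean turned, with a log2 ratio of -0.14 against 0.34 by assigned gene. ChIP-seq peaks carry no strand, so acetylation at this place cannot be divided between Sox6 and Sox6os.

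The adult stretch lies in intron 2 of 15, about 168 kb downstream of the upstream start sites. Its regions at chromosome 7, 115865283 to 115866148 and 115866427 to 115867137, had peaks in all 3 adult libraries and in no neonatal library. Together they covered 828, 888 and 1553 bp in adult replicates 1, 2 and 3. Folds reached 5.78 in adult replicate 1, 4.82 in adult replicate 2 and 5.52 in adult replicate 3. Regions with a peak in all 3 adult and no neonatal list made up 20.4% of all merged regions and 2 of 11 for Sox6, so the share is near the general one. In the authors' deposited table the sites there had log2 fold changes of 3.39 (chromosome 7, 115865759 to 115866158, adjusted p = 2.75e-06) and 3.71 (115866504 to 115866903, adjusted p = 7.15e-05). Both lay above the bound of 2.04 and stood at the 74.9 and 80.6 percentile of sites in the authors' deposited table.

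Sox6 peaks seen in neonatal cells only came mostly from a single library. Neonatal replicate 2 alone had peaks in introns 4, 5 and 7 of 15 (438, 721 and 268 bp), at promoter regions of 250 and 189 bp, and at a distal intergenic region of 166 bp, 147 kb from the nearest start site. None of these 6 regions was found in the lists of neonatal replicates 1 and 3. A further promoter region (chromosome 7, 116030835 to 116030992) had a peak in neonatal replicates 2 and 3, in the former as part of the peak assigned to Sox6os. An internal promoter at chromosome 7, 115824371 to 115824783, part of which is printed above, had peaks in adult replicates 2 and 3 only, of 322 and 171 bp.

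At equal length of 7353 peaks Sox6 kept 1, 0 and 2 peaks in neonatal replicates 1, 2 and 3 and none in any adult list, so its intron 2 peaks were not among the strongest adult peaks. At the length of the list of neonatal replicate 2, 31189 peaks, that library had 8 Sox5, 7 Sox6 and 7 Sox13 peaks. The adult libraries then kept 2, 2 and 1 Sox5 peaks, 2, 0 and 1 Sox6 peaks and 4, 3 and 3 Sox13 peaks. Covered length at 31189 peaks was 3.09 kb for Sox5 in neonatal replicate 2 against 0.945, 1.01 and 0.656 kb in the adult libraries, and for Sox6 3.06 kb against 0.400, 0 and 0.711 kb. For Sox13 it was 2.52 kb against 4.46, 3.02 and 4.53 kb, longer in each adult library than in the 1 neonatal library compared. At this length neonatal replicate 2 keeps its whole list, weakest peaks included, and the adult lists keep only their strongest peaks. The share of all genes with either direction at this length was not computed, so these values describe the 3 genes only.

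Sox13 had more covered bases in each adult library than in any neonatal library, at its promoter and at a cluster upstream of it. Assigned peaks covered 0.293, 2.52 and 0.393 kb in the neonatal and 4.83, 4.67 and 5.96 kb in the adult libraries. No neonatal value reached the lowest adult value, as for 60.0% of all genes with a peak. The means were 1.07 ± 1.26 kb and 5.15 ± 0.703 kb (SD, n = 3 each), a ratio of 4.82, and 15.03 without neonatal replicate 2. Peaks numbered 1, 7 and 2 in the neonatal and 5, 10 and 8 in the adult lists, and these numbers overlapped.

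The Sox13 promoter (chromosome 1, 133422635 to 133424471, at the start of ENSMUST00000153799.7) was the region with a peak in all 6 libraries, and it was wider in adult cells. Peaks covered 293, 817 and 186 bp of it in the neonatal and 1799, 1379 and 1716 bp in the adult libraries. The groups did not overlap, and the ratio of means was 3.78, or 6.81 without neonatal replicate 2. By covered length per gene, 78.2% of genes with a peak in all 6 lists had that pattern. The share over single regions was not computed. In neonatal replicates 1 and 3 peaks covered only bases around the start site, in part those printed in capitals above, whereas in adult libraries they ran on for over 1 kb into the gene. Neonatal replicate 2 had, besides its peak at the start site, a separate peak of 343 bp that lay 1.016 kb into the gene. Folds were 4.54, 7.73 and 4.03 in the neonatal and 11.98, 12.4 and 5.92 in the adult libraries, where adult replicate 3 was below neonatal replicate 2. In the authors' deposited table the promoter site (chromosome 1, 133423997 to 133424396) had a log2 fold change of 1.42 (adjusted p = 0.0034), below the bound of 2.04 and at the 12.9 percentile of its sites. Its change was thus smaller than that of most listed sites.

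Upstream of Sox13 a cluster of 6 distal intergenic regions, 8.16 to 14.4 kb before the start site (chromosome 1, 133432533 to 133438747), held more covered bases in each adult list than the promoter itself. Peaks covered 0, 877 and 0 bp of it in the neonatal and 2661, 2418 and 3457 bp in the adult libraries. Neonatal replicate 2 was the only neonatal library with a peak there, and the ratio of means was 9.73 with it. The cluster was chosen after its values were seen, and no share over comparable stretches was computed. The widest region of the cluster (133433255 to 133435765) had peaks of up to 2498 bp in adult replicate 3, with folds of 11.6, 10.5 and 12.8 in adult replicates 1, 2 and 3 and of 4.30 in neonatal replicate 2. A second region (133437577 to 133438398) had peaks in the same 4 libraries, covering 216 bp in neonatal replicate 2 and 661, 322 and 345 bp in the adult libraries.

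Of the authors' sites, 3 in the cluster were higher in adult cells. Their log2 fold changes were 1.76 at 133434076 to 133434475 (adjusted p = 0.00148 in the authors' deposited table), 3.25 at 133436056 to 133436455 (adjusted p = 0.00336) and 2.24 at 133437906 to 133438305 (adjusted p = 0.000989). The first lay below and the others above 2.04. An intron 1 site (chromosome 1, 133397815 to 133398214) had a log2 fold change of 1.45 (adjusted p = 0.0158) in the authors' deposited table, and its region (133397889 to 133398276) had peaks of 368, 336 and 276 bp in the adult lists and none in the neonatal lists. All 5 Sox13 sites in the authors' deposited table were thus higher in adult cells, and of all its sites 0.579% were higher in neonatal cells.

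Of the remaining Sox13 regions, those of 199 bp in intron 1 and of 210 bp at 46.3 kb upstream were each found in a single adult library. Another intron 1 region, 5.8 kb inside the gene (chromosome 1, 133418184 to 133418549), had peaks in neonatal replicates 2 and 3, of 366 and 207 bp, and in no adult library. It was the only Sox13 region found in neonatal cells only. An internal promoter (133385734 to 133386295) had peaks in neonatal replicate 2 and adult replicates 2 and 3, of 459, 331 and 314 bp. At equal length of 7353 peaks, Sox13 kept 1, 1 and 2 peaks in the neonatal and 1, 2 and 1 in the adult lists. The promoter was kept in every library except adult replicate 3, and the upstream cluster in adult replicates 2 and 3.

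**Figure D4:**
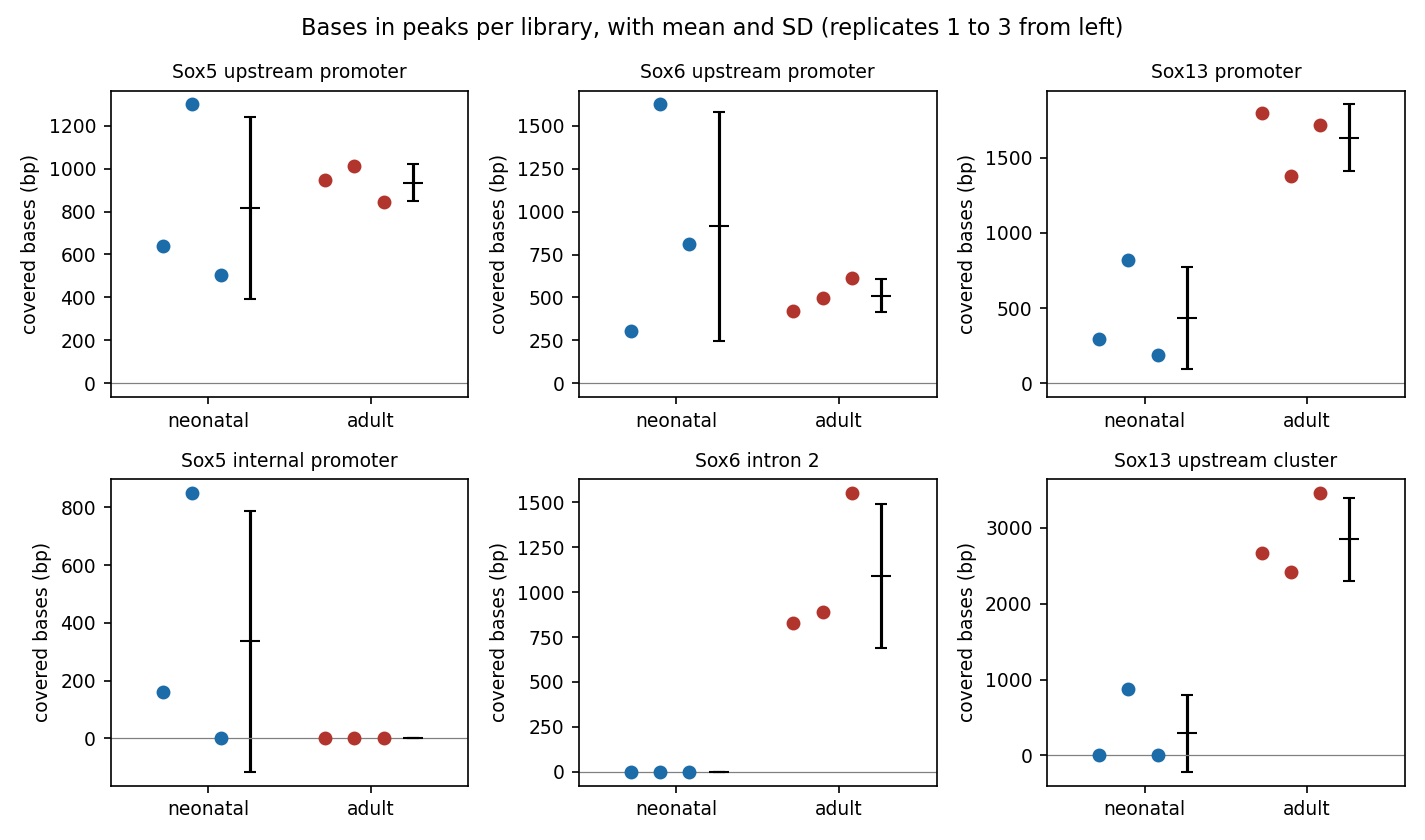
Bases in peaks (bp) per library in the main start-site regions (top row) and in a further stretch of each gene (bottom row), chosen after their values were seen. The stretches were not ranked by their difference between the ages. Peaks inside Sox5 that were assigned to Sox5os2, found in adult lists only, are not shown. Points are replicates 1 to 3 from left (blue neonatal, red adult), and the bar beside them is the mean with SD (n = 3). The Sox5 internal promoter is at 0 in all adult libraries, Sox6 intron 2 at 0 in all neonatal libraries, and the Sox13 promoter and upstream cluster are higher in each adult library.

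Seen across the 3 genes, 13 of the 30 regions (43.3%) had a peak in neonatal and no adult libraries, against 5.62% of all merged regions, and 10 (33.3%) in adult and no neonatal libraries, against 73.7%. All 13 neonatal regions had a peak in neonatal replicate 2, 10 of them in that library alone and 3 also in neonatal replicate 1 or 3. Without that library 20 regions were left, of which 3 were found in neonatal libraries only, against 0.358% of all regions left, and 14 in adult libraries only, against 89.9%. None of the 30 had a peak in all 3 neonatal and no adult library, a pattern of 0.0398% of all regions. A peak in all 6 libraries was found in 3 of 30, against 4.74% of all regions, and these are the 3 promoters described. Every SoxD gene had a promoter peak in all 6 lists, as 17.1% of genes did, so none belonged to the 9.60% with one in all adult and no neonatal lists.

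A further measure is the share of a library's covered bases that a gene held, in bases per Mb covered. It does not set aside the unequal lists, because a longer list enlarges the divisor. A gene with unchanged covered length thus has a lower share in the adult libraries. For Sox5 it was 269, 225 and 217 per Mb in neonatal replicates 1, 2 and 3 and 22.6, 33.0 and 18.2 per Mb in the adult libraries. For Sox6 it was 101, 223 and 349 against 29.9, 38.5 and 38.3 per Mb. The neonatal libraries lay above the adult libraries for both genes, as for 14.3% of all genes and 73.1% of the 4332 genes with a peak in all 6 lists. The adult lists covered 41.9 to 60.9 Mb and the neonatal lists 2.33 to 13.7 Mb. For Sox13 the shares were 98.5, 184 and 168 against 115, 106 and 97.8 per Mb, and they overlapped, whereas adult shares were above neonatal shares for 25.2% of genes.

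**Figure D5:**
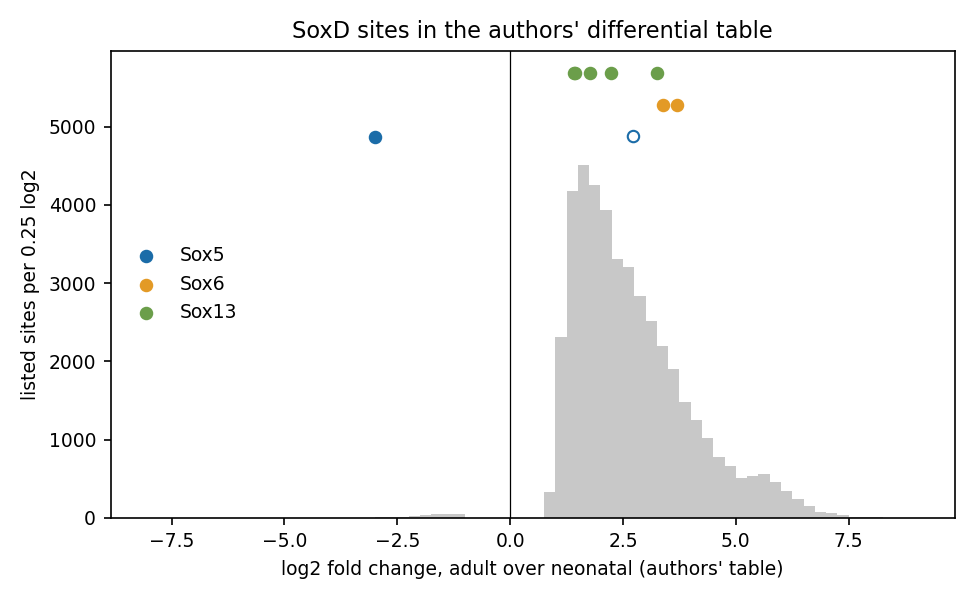
Log2 fold changes, adult over neonatal, of the 43888 sites in the authors' deposited table (grey bars, sites per 0.25 log2) with the SoxD sites as points above; the open point is the site inside Sox5 assigned to Sox5os2. The Sox5 internal start at -3.00 stands left of 0 and all Sox6 and Sox13 sites stand right of it, between 1.42 and 3.71.

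The genes whose covered length was most like each member over the 6 libraries were found by the Euclidean distance of log2(bases + 200) among 23430 genes. For Sox5 they were Gm26569, Egr3, Gm28578, Arhgef10l and Gm42458, at distances of 0.64 to 0.84. Egr3, an immediate early transcription factor, was covered over 675, 2863 and 476 bp in the neonatal and 1316, 1246 and 1523 bp in the adult libraries. For Sox6 they were Ptp4a2, Gm31104, Elk3, Spock2 and Zdhhc22 (0.64 to 0.87) and for Sox13 Traf3, Zswim6, 5033426O07Rik, Crtac1 and Asap3 (0.34 to 0.48). The lists for the 3 genes share no gene.

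The genes that SoxD factors work with or against gave a mixed picture. Among the SoxE partners, Sox8 and Sox10 had a longer covered length in every adult than in every neonatal library, with ratios of means of 5.59 and 8.03. Sox9 had peaks in neonatal replicates 1 and 2 only, over 246 and 660 bp. Of 10 differentiation and myelin genes, all 10 were longer in every adult library (background 60.0%), from Tcf7l2 at a ratio of 4.17 to Myrf, the master regulator of myelination, at 41.7 among the genes with a peak at both ages. Of 10 progenitor regulators 4 were, with a ratio of 12.5 for Olig1, which specifies the oligodendrocyte lineage together with Olig2. Pdgfra, which Sox5 and Sox6 are known to favour, was covered over 1.64, 6.12 and 0.513 kb in the neonatal and 1.59, 1.21 and 2.12 kb in the adult libraries, values that overlapped as those of Sox5 did. At equal length of 7353 peaks, a promoter peak in 3 neonatal and 0 adult lists was found for 3 of the 10 progenitor regulators, namely Id2, Hes1 and Pdgfra, for 2 of 9 corepressors, for 1 of 7 SoxB and SoxC genes and for none of the SoxE or myelin genes. The background was 1.93% of all genes and 9.36% of those with a promoter peak in all 6 full lists, as Id2, Hes1 and Pdgfra had.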

How the data were processed

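The authors deposited a list of peaks per H4K8ac library, with a fold enrichment (a linear ratio over background), −log10 p-values and q-values, a score of 10 times −log10 q rounded down, and the nearest gene, class and distance to its start site, per the file headers. The largest q-value of the lists was 0.0427 to 0.0489. The submitters' processing notes name Trim Galore, Bowtie2 2.4.5, SAMtools, deepTools, MACS2, DiffBind, ChIPseeker and GRCm38, without settings or the use of input. The authors also deposited a table of sites with a log2 fold change, p-value and adjusted p-value and no values per library. Its direction is not named: positive sites overlapped adult peaks in 85.0% to 96.7% of cases and neonatal peaks in 10.3% to 27.8%, so positive was read as higher in adult. Multiplying adjusted p by rank and dividing by p gave 54838 tested sites.

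Covered length was the union of the bases of assigned peaks. Regions joined peaks of the 6 lists that overlapped by at least 1 bp. Promoter peaks lie within 3000 bp of a start site, as the authors annotated. Equal lists held the peaks with the smallest p-value. A site took the gene of the peak sharing the most bases with it. Named regions had a peak in all 3 libraries of an age (at most 8 per gene). Others are named to account for every region, chosen after their values were seen. Named sites were all higher in neonatal and up to 5 per gene higher in adult. Starts are counted from 1. Python 3.11.15, numpy 2.4.6 and pandas 2.3.3 were used, and the functions were tested on simulated data. The members and lists were chosen with earlier results of these data known. Alternatives were a q-value under 0.005, equal lists, assignment by position, other promoter and merging distances, same-numbered pairs and leaving out each library.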

Additional observations from a re-analysis of the deposited data

How the results depend on the processing

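Adult over neonatal log2 ratios of covered length were -0.32 for Sox5, 0.34 for Sox6 and 2.27 for Sox13. With 1 library left out they ranged from -0.73 to 0.84 for Sox5, from -0.14 to 1.66 for Sox6 and from 1.82 to 3.91 for Sox13, the highest value each time without neonatal replicate 2. Differences in the number of peaks were -1.67, 1 and 4.33, with ranges of -2.83 to 0.167, -0.167 to 2.83 and 3.17 to 6.17. Differences in the percentile of the strongest promoter peak, which lists of unequal length cannot show to be changes, were 7.65, -8.21 and 35.9, with ranges of -1.16 to 13.0, -18.0 to 4.62 and 23.6 to 51.9. Longer equal lists of 31189 peaks were an alternative chosen after seeing the data, with neonatal replicate 2 as the only neonatal library. The log2 ratios of Sox5, Sox6 and Sox13 within them were -1.83, -3.05 and 0.67. At equal lists of 7353 peaks the differences in the number of peaks were -1.67 for Sox5, -1 for Sox6 and 0 for Sox13. The log2 ratio of covered length was 2.59 for Sox13. For Sox5 and Sox6 it is undefined, because no adult list had a peak of either gene left while neonatal lists did. The 3 promoter percentiles could not be computed because at least 1 library had no promoter peak of the gene left. By position, the Sox6 log2 ratio was -0.14, its promoter percentile difference -28.5, and the sites higher in adult 1 for Sox5 (0 by gene) and 3 for Sox13 (5 by gene). Same-numbered libraries did not deviate together (Pearson r of 0.0039, 0.0388 and -0.0169 across 4332 genes, which are not replicates). With the replicate block the log2 ratios of Sox5, Sox6 and Sox13 were 0.10, 0.91 and 2.95. These are means of the log2 ratios of same-numbered libraries, whereas the main values are log2 ratios of means. The higher values therefore reflect another way of averaging and show no effect of the block. Differences in peak number and promoter percentile were the same with the block as without it. Of the 97 values of covered length, peak number and promoter percentile under alternatives, 83 kept the sign, 3 were exactly 0 and 11 had the opposite sign. All values of opposite sign were for Sox5 or Sox6. They arose when a library was left out, with the replicate block, by position, or in equal lists of either length. Beyond this, why the sign changed was not tested.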

Other observations

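Other Sox genes and corepressors also differed in direction. Sox11, a SoxC factor of immature neurons, was covered over 661, 3049 and 646 bp in the neonatal and 198, 358 and 0 bp in the adult libraries, 1 of 7 SoxB and SoxC genes longer in every neonatal library (background 0.303%). Sox2 and Sox12 were longer in every adult library. Their ratios of means were 2.93 and 2.4. Among 9 corepressor genes, 6 were longer in every adult library (background 60.0%), with the highest ratio for Ctbp1 at 18.8. Ncor1 was covered over 0.483, 1.01 and 0.657 kb in the neonatal and 0 kb in every adult library. It was the 1 of 9 corepressor genes longer in every neonatal library (background 0.303%). The lowest ratio among corepressors with peaks at both ages was 0.859, for Ctbp2, a corepressor that binds SoxD proteins.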
